A study of Homo sapiens with 2 samples.

Results

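Small nucleolar RNAs (snoRNAs) and small Cajal body RNAs were examined in RNA-Seq of the human ovarian cancer line A1847. The genes were selected on their measured values, as annotated snoRNA genes of any class with at least 10 reads in the parental control and CARM1 KO libraries together. This gave 107 of the 1457 snoRNA genes in a count table of 57736 genes, and 1272 snoRNA genes had no read in either library. By symbol, 38 were SNORD genes, 53 were SNORA genes, 15 were SCARNA genes and 1 carried the symbol U3 (ENSG00000212195). The annotation types all 49 small Cajal body RNA genes as snoRNA, so the classes follow the gene symbols.

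The comparison has 1 library of parental control A1847 cells, labelled CARM1 wild type, and 1 library of A1847 cells in which CARM1 was knocked out by a lentiviral CRISPR vector with a single guide RNA. CARM1 is an arginine methyltransferase that acts on histones and other nuclear proteins, and the knockout is a single clone. No drug treatment is given for either library, and both came from total RNA of cells grown in the same medium. With 1 library for each genotype there is no spread between replicates, no p-value is given, and a difference between the libraries cannot be told apart from a difference between the clone and its parent or between the 2 preparations. The parental library held 30741953 reads and the CARM1 KO library 32300391. CARM1 itself had 975 parental and 380 CARM1 KO reads, a 2.63-fold lower level (95% interval 2.33 to 2.97). Epithelial genes of the labelled cell type were counted in both libraries, with 311 and 1149 reads for PAX8 and 249 and 848 reads for EPCAM, whereas WT1 had 8 and 1 and MUC16 had 0 and 1. Of the leukocyte and endothelial markers PTPRC had 6 and 0 reads, CD3E 0 and 0, and VWF 1 and 2, while CD68 had 400 and 1644. Of the fibroblast markers COL1A1 had 131 and 537 reads, DCN 24 and 0, and LUM 61 and 1. The part of these genes in the results was not tested.

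snoRNAs guide chemical modification of other RNAs in the nucleolus. Box C/D RNAs (SNORD) direct 2′-O-methylation and box H/ACA RNAs (SNORA) direct pseudouridylation, mostly of ribosomal RNA, while small Cajal body RNAs (SCARNA) direct the same changes on the spliceosomal RNAs. Most are cut out of the introns of host genes after splicing, and each is kept stable by a set of core proteins bound to its boxes. A few, such as U3, have their own promoters and act in the cutting of the ribosomal RNA precursor.

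The classes can be read from the annotated sequences, which were taken from the GRCh37 genome. In the box C/D genes below, capitals mark the letters of box C (TGATGA, searched in the first 25 bases) and box D (CTGA, searched in the last 15 bases). SNORD8 at chr14:21865451-21865560 (minus strand) is shown as one of the SNORD genes with the most reads per base and SNORD17 at chr20:17943353-17943589 (minus strand) as a longer one. SNORD116-29 at chr15:25351668-25351750 (plus strand) has the shortest length among the snoRNA genes with at least 10 reads, a length that SNORD60 shares.
SNORD8: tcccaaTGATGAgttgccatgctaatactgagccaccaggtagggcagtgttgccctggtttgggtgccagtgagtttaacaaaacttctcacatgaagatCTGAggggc
SNORD17: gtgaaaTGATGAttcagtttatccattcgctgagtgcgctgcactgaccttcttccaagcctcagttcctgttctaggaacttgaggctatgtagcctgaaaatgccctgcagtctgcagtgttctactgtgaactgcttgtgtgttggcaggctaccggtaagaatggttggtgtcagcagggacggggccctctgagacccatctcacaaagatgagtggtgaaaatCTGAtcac
SNORD116-29: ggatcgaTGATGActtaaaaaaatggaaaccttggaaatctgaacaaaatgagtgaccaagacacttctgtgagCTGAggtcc
Both letter strings were present in 29 of 38 SNORD genes (76.3%) and in 0 of the 38 windows of the same length just upstream or just downstream. Of these 38 genes 19 are SNORD116 copies of similar sequence, so the share counts alike genes repeatedly. Among the other 350 annotated SNORD genes, 168 (48%) had both.

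In the genes with box H/ACA ends below, capitals mark the ACA nearest the 3′ end, searched in the last 8 bases. SNORA23 (chr11:9450320-9450501, plus strand), SCARNA1 (chr1:28160912-28161077, plus strand) and SCARNA18 (chr5:82360023-82360156, minus strand) are shown because their counts were over 3-fold lower in CARM1 KO cells.
SNORA23: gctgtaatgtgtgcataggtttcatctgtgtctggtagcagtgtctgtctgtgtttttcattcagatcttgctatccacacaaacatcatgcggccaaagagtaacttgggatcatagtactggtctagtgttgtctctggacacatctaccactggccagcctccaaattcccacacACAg
SCARNA1: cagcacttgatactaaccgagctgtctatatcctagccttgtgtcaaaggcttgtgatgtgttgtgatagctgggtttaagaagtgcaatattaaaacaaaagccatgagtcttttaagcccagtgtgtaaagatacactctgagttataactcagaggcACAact
SCARNA18: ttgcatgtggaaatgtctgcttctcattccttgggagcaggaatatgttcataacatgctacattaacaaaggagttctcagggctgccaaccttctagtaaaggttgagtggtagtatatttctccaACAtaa
SNORA49 (chr12:132515769-132515904, plus strand), SNORA31 (chr13:45910449-45910582, minus strand), SCARNA12 (chr12:7076500-7076769, minus strand) and SCARNA13 (chr14:95999692-95999966, minus strand) are shown because they were abundant and were not lowered to that degree.
SNORA49: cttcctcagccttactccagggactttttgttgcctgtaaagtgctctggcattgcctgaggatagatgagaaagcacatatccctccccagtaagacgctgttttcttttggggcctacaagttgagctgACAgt
SNORA31: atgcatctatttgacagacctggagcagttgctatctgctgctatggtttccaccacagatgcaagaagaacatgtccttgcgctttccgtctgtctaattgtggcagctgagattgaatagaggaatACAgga
SCARNA12: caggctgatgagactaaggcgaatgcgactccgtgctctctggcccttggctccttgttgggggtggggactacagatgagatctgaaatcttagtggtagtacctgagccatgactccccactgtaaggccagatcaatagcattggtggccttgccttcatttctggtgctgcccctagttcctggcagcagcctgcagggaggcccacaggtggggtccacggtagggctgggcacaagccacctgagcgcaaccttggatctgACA
SCARNA13: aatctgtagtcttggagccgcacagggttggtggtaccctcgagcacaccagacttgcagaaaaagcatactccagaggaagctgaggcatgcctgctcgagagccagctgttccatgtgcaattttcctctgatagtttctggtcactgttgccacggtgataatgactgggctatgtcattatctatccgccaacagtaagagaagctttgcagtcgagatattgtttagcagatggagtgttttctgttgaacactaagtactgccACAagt
The ACA letters stood in this position in 47 of 53 SNORA genes (88.7%), in 11 of 15 SCARNA genes and in 0 of 38 SNORD genes. They stood in 2 of 53 upstream and 1 of 53 downstream windows of the SNORA genes. For the SCARNA genes these were 3 of 15 upstream and 2 of 15 downstream windows. Only the given strand of each gene or window was searched. The letter strings were present in genes of both kinds of change and are a description of the sequence.

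Few of the shortest genes were detected. None of the 259 annotated snoRNA genes under 80 bases reached 10 reads, compared with 24 of 273 genes of 80 to under 100 bases, 5 of 426 genes of 100 to under 120 bases, 58 of 380 genes of 120 to under 150 bases and 14 of 71 genes of at least 200 bases. Length is mixed with class and family in these shares. The 622 annotated genes without a SNORD, SNORA or SCARNA symbol had a median of 104 bases, and 1 of them reached 10 reads. Of the 24 genes of 80 to under 100 bases, 19 were SNORD116 copies. The reads were paired and 75 bases long, and the genes under 80 bases had a median length of 72 bases. The 107 genes therefore stand for the longer part of the family, from 83 to 791 annotated bases. At the edge of the selection, SCARNA3 (9 and 1 reads in parental and CARM1 KO cells) and SNORA47 (5 and 5) were just included, and SNORA24 (4 and 5) and SNORA42 (5 and 4) were just left out.

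Most of the 107 genes had a lower level in CARM1 KO cells. The level was lower for 95 genes (88.8%), where 51.1% of all 18563 genes with at least 10 reads were lower, and 49 genes (45.8%) were lower past 3-fold, where 11.6% of all genes were. None was higher past 3-fold, against 12.8% of all genes. The median log2 fold change was -1.49, and that of all genes was -0.03. The 95% interval of the ratio, which is an exact binomial interval and covers counting error only, lay wholly below equal levels for 81 genes and wholly above for 4. These intervals say nothing of the spread between cultures. In these bulk samples, fewer cells with a given RNA and less of that RNA in each cell cannot be told apart.

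**Figure D1:**
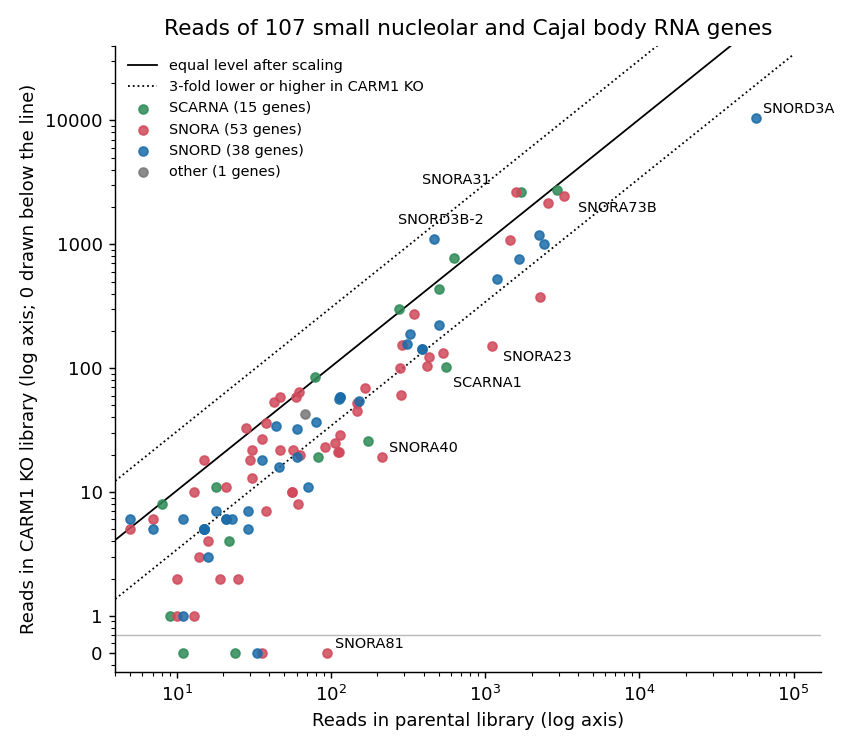
Reads of each of the 107 genes in the parental library (x axis, log scale) and in the CARM1 KO library (y axis, log scale, with 0 reads drawn below the line), coloured by class; the solid line marks equal levels after scaling and the dotted lines 3-fold differences. Of the 107 points 95 lie below the solid line, 49 lie below the lower dotted line and 0 lie above the upper one.

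Genes with few reads made up much of the count of genes lower past 3-fold. Of the 56 genes under 100 reads, 32 (57.1%) were lower past 3-fold and 0 were higher past 3-fold. The 11.6% of all genes given above was not matched to the group in number of reads. An excess of lower genes remained without the genes under 100 reads. Among the 51 genes with at least 100 reads, 43 were lower in CARM1 KO cells, 17 (33.3%) were lower past 3-fold where 7.32% of all genes with as many reads were, and 0 were higher past 3-fold where 10.4% were. Their median log2 fold change was -1.21. Summed over the 107 genes, there were 92117 parental and 34259 CARM1 KO reads, a 2.75-fold lower level. U3 dominated this sum, and without SNORD3A the reads were 35254 and 23778, a 1.52-fold lower level.

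All 3 large classes had medians below 0, and their summed reads moved unequally. The median log2 fold change was -1.44 for SNORD genes (15 of 38 lower past 3-fold), -1.68 for SNORA genes (27 of 53) and -0.74 for SCARNA genes (7 of 15). Among genes with at least 100 reads the medians were -1.15, -1.75 and -0.11. Summed reads were 67935 (parental) and 16396 (CARM1 KO) for SNORD, and 17099 and 10669 for SNORA. For SCARNA they were 7015 and 7151, a ratio of 1.00 after scaling, and 4 of the 15 genes were higher. The differences between the classes were not tested.

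**Figure D2:**
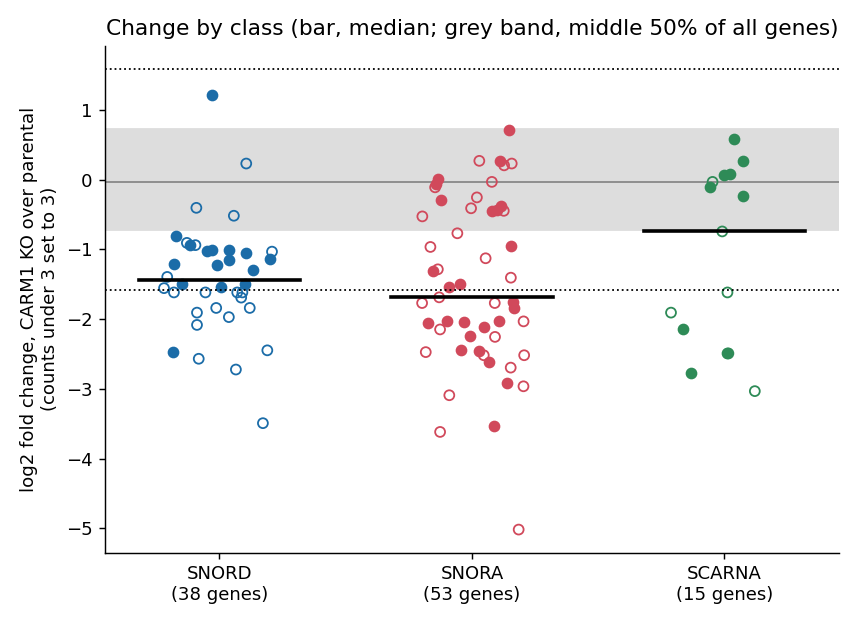
The log2 fold change (CARM1 KO over parental, counts under 3 set to 3) of each gene is plotted by class, filled for at least 100 reads and open for fewer, with the class median as a bar, the middle 50% of all genes as a grey band (-0.72 to 0.72) and 3-fold differences as dotted lines. The medians on this scale are -1.45 for SNORD, -1.69 for SNORA and -0.74 for SCARNA. Above 0 lie 2 of 38 SNORD, 6 of 53 SNORA and 4 of 15 SCARNA genes.

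The RNAs that act in cutting of the ribosomal RNA precursor were led by U3. SNORD3A (ENSG00000263934, chr17:19091329-19092027), the main U3 gene, had 56863 parental and 10481 CARM1 KO reads, which was 5.56-fold lower (5.44 to 5.67). This gene alone gave 61.7% of the reads of the 107 genes in parental cells and 30.6% in CARM1 KO cells. Per length it stood at 2612 RPKM (reads per kilobase of length, scaled to library size) in parental and 470.3 in CARM1 KO cells, above every other gene of the group in parental cells. The annotated gene of 699 bases is longer than the mature U3 RNA, so these levels per length are low estimates for it.

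The other U3 genes were divided. SNORD3B-1 had 2425 and 1006 reads, a 2.47-fold lower level (2.29 to 2.66), and the neighbouring SNORD3B-2 on the opposite strand had 468 and 1108 reads, a 2.31-fold higher level (2.07 to 2.58). The U3 copies share sequence, so the division of reads among them is uncertain and the sum is the firmer value. Over the 4 SNORD3 genes the reads were 59760 and 12595, a 4.86-fold lower level (4.77 to 4.95). The single gene with the symbol U3 among the 107 had 68 and 43 reads.

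Other RNAs of precursor processing were also counted lower. SNORD118 (U8), which acts on the precursor of the large ribosomal subunit RNAs, had 33 parental and 0 CARM1 KO reads, 11.3-fold lower when the 0 is set to the 3 reads that it allows, with a lower 95% limit of 8.66-fold. SNORD13 (U13), linked to acetylation of the small subunit RNA, had 325 and 189 reads, a 1.76-fold lower level (1.47 to 2.12). SNORD14C, a U14 gene of small subunit processing, had 312 and 157 reads, 2.04-fold lower (1.67 to 2.48). SNORA73B, a U17 gene of the H/ACA class that also acts in small subunit processing, changed least of these, with 3225 and 2450 reads, 1.35-fold lower (1.28 to 1.42).

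The abundant SNORD genes that guide methylation were all lower. SNORD97 had 2241 parental and 1191 CARM1 KO reads, SNORD8 had 1653 and 763, and SNORD10 had 1187 and 525. SNORD8 guides a site on the U6 spliceosomal RNA and SNORD10 sites on U6 and on small subunit RNA. The levels were 1.93-fold lower for SNORD97 (1.80 to 2.07), 2.22-fold lower for SNORD8 (2.03 to 2.42) and 2.31-fold lower for SNORD10 (2.09 to 2.57). SNORD17, printed above, had 504 and 221 reads and was 2.34-fold lower (1.99 to 2.75). SNORD9, a second guide for U6 in the same host gene as SNORD8, had 71 and 11 reads and was 6.61-fold lower (3.48 to 13.8). Only 1 of the 16 SNORD genes with at least 100 reads, SNORD3A, was lower past 3-fold (6.25%), which is near the 7.32% of all genes with as many reads. The share of 15 in 38 for the whole class thus rests on genes with fewer reads.

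The SNORD116 genes are a tandem array in the imprinted Prader-Willi region of chromosome 15 and have no known target in ribosomal RNA. Of 28 annotated copies 19 reached 10 reads, and all 19 were lower in CARM1 KO cells. The family had 1686 parental and 665 CARM1 KO reads, 2.60-fold lower (2.37 to 2.84). The neighbouring SNORD115 family, with 46 annotated copies, had 4 and 2 reads, and the 15 SNORD113 and 30 SNORD114 genes had none. The 4 copies below, all of 95 bases, show how alike the most counted copies are, with capitals at the bases of SNORD116-3, SNORD116-8 and SNORD116-5 that differ from SNORD116-9 (chr15:25318254-25318348, plus strand), and in SNORD116-9 at the box letters.
SNORD116-9: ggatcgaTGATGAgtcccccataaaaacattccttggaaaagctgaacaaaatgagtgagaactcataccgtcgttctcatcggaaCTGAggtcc
SNORD116-3: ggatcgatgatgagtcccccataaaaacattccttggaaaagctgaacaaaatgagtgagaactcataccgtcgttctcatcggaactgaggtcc
SNORD116-8: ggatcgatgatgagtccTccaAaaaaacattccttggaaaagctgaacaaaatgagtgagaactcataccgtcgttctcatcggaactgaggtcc
SNORD116-5: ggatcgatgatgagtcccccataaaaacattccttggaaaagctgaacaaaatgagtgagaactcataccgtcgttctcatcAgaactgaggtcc
SNORD116-3 (chr15:25302007-25302101, plus strand) had 0 differences from SNORD116-9, and both were listed with 391 and 142 reads. RSEM divides the reads that match both. SNORD116-8 (chr15:25315579-25315673, plus strand), with 2 differences, had 153 and 54 reads, and SNORD116-5 (chr15:25307480-25307574, plus strand), with 1, had 114 and 58. The copies are thus not independent measurements, and the family sum is the firmer value. Among the 19 copies the log2 fold change ran from -2.54 (SNORD116-6) to -0.94 (SNORD116-23). SNORD116-29, the shorter and more different copy printed further above, had 80 and 37 reads.

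The SNORA genes held the widest range of change. Among the 51 small RNA genes with at least 100 reads, SNORA40 and SNORA23 had the lowest ratios. SNORA40 (ENSG00000210825) had 215 parental and 19 CARM1 KO reads, 11.6-fold lower (7.24 to 19.6). SNORA23 had 1106 and 150 reads, 7.55-fold lower (6.36 to 9.01). SNORA22 (ENSG00000206634) had 2274 and 378 reads, 6.16-fold lower (5.52 to 6.89). A second SNORA22 gene (ENSG00000207344) was lower as well, with 535 and 133 reads, and the family with 2834 and 513 reads was 5.66-fold lower (5.15 to 6.23). SNORA74A, for which no host was found among the genes of the count table, had 421 and 104 reads, 4.14-fold lower (3.34 to 5.19). SNORA20 had 283 and 61 reads, 4.75-fold lower (3.59 to 6.37).

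Other abundant SNORA genes were close to level, and SNORA31 was higher. SNORA49 had 2567 parental and 2140 CARM1 KO reads, 1.23-fold lower (1.16 to 1.30). SNORA79 (ENSG00000222489) had 1453 and 1084 reads, 1.37-fold lower (1.27 to 1.49). SNORA31 had 1589 and 2669 reads, 1.64-fold higher (1.54 to 1.75). An exon of its host gene TPT1 overlaps SNORA31, so reads could be divided between both. Per length, SNORA31 was at 380.8 RPKM in parental and 624.7 in CARM1 KO cells, so that by annotated length it stood above SNORD3A in CARM1 KO cells. The genes SNORA57 (47 and 58 reads) and SNORA48 (62 and 64 reads) had intervals of the ratio that included equal levels.

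Among the small Cajal body RNAs the long genes stood apart from most of the short ones. The 5 genes of at least 200 bases were SCARNA7, SCARNA12, SCARNA13, SCARNA5 and SCARNA6, among them the composite guides that carry both C/D and H/ACA parts. SCARNA7 had 2908 parental and 2766 CARM1 KO reads, SCARNA12 had 1715 and 2622, and SCARNA13 had 625 and 772. SCARNA12 was thus 1.49-fold higher (1.40 to 1.59) and SCARNA13 1.21-fold higher (1.08 to 1.34), while SCARNA7 was within 1.08-fold of level. An exon of the host gene overlaps SCARNA12 and SCARNA13, where reads could be divided between both. SCARNA5 had 503 and 435 reads and SCARNA6 278 and 300. The median log2 fold change of these 5 was 0.08 and none passed 3-fold. The 10 shorter genes had 986 parental and 256 CARM1 KO reads, a median of -2.47, and 7 of them were lower past 3-fold. With counts under 3 set to 3 this median was -2.03. Length went with depth here. Each long gene had at least 578 reads in both libraries together, while SCARNA4 had 24 and SCARNA17 had 11. Of the 9 SCARNA genes with at least 100 reads, 3 were lower past 3-fold. SCARNA1 had 559 and 102 reads, with a ratio of CARM1 KO to parental of 0.178 (0.143 to 0.220), and SCARNA18 had 174 and 26, 6.85-fold lower (4.52 to 10.8). Other short genes were not lower to that degree, with 79 parental and 85 CARM1 KO reads for SCARNA22, 8 and 8 for SCARNA23 and 18 and 11 for SCARNA20. Over the 15 genes the Spearman correlation of the change with length was 0.33, as a description. The limit of 200 bases was chosen with the values known.

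Length was less clear a divide in the whole group. The 93 genes shorter than 200 bases had a median log2 fold change of -1.54, and 45 of them were lower past 3-fold. The 14 genes of at least 200 bases had a median of -0.83, and 4 were lower past 3-fold, SNORD3A among them. By class, the median of these long genes was 0.08 for 5 SCARNA, -1.26 for 4 SNORD and -2.02 for 5 SNORA genes. Of the long SNORA genes 3 were lower past 3-fold. The lowest median by length, -2.70, was that of the 6 genes of 150 to under 200 bases, 5 of them lower past 3-fold. Across the 51 genes with at least 100 reads the Spearman correlation of the change with length was 0.21, and with the percentage of G and C in the gene it was 0.43 (Pearson 0.48). Over all 107 genes the values were 0.12 for length and 0.29 (Pearson 0.15) for G and C. The points share 2 libraries, several share a host gene or sequence, and these values are descriptions. Other short structured RNAs moved with the group. Of the 59 genes of types snRNA and misc_RNA shorter than 200 bases, 58 were lower in CARM1 KO cells, with a median log2 fold change of -2.45, while the 72 longer genes of these types had a median of -0.53. The part of a loss of short RNA in preparation was not tested, and it cannot be told apart from the genotype with 1 library each. TERC, the telomerase RNA, which has an H/ACA end, had 1029 and 643 reads.

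**Figure D3:**
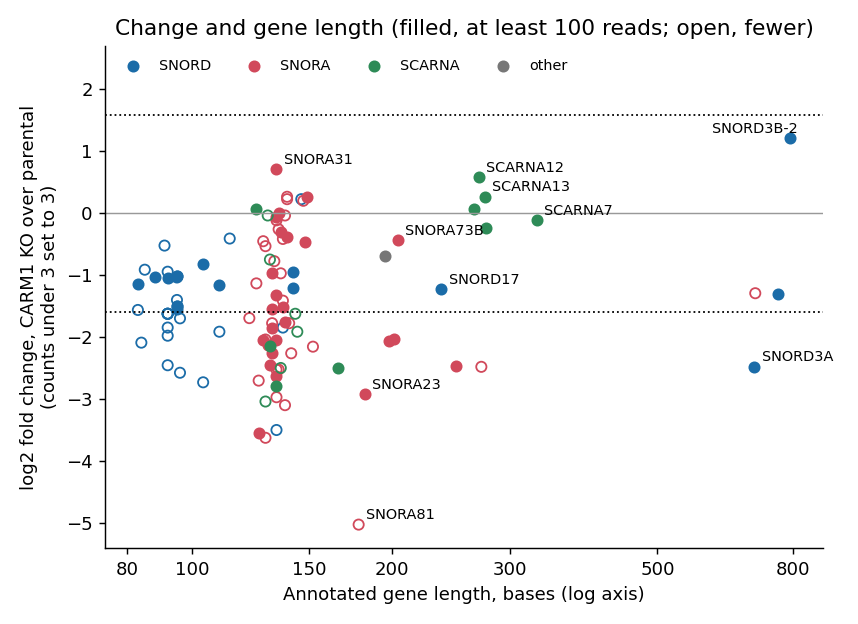
The log2 fold change (CARM1 KO over parental, counts under 3 set to 3) of each of the 107 genes is plotted against annotated length in bases (log axis), filled for genes with at least 100 reads and open for fewer; dotted lines mark 3-fold. Below 200 bases 45 of 93 genes are lower past 3-fold, and the SCARNA genes of at least 200 bases lie near 0.

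Each gene was then set against the host gene whose span contains it on the same strand. A host with at least 10 reads was found for 94 genes, in 65 hosts. The hosts themselves were balanced, with 33 lower and 32 higher in CARM1 KO cells and a median log2 fold change of -0.02. The small RNA lay below its host in 84 of 94 cases, by over 3-fold in 54, and in 0 cases above it by 3-fold. The median difference in log2 fold change between the small RNA and its host was -1.77. SNORD116 copies in SNHG14 weigh on these values. Without them 65 of 75 genes lay below their host, 36 by over 3-fold, with a median difference of -1.53. With 1 gene for each host, at least 100 reads and no SNORD116, 26 of 31 lay below, 13 by over 3-fold, with a median of -1.26. All 33 hosted SNORD genes, 41 of 46 SNORA genes and 9 of 14 SCARNA genes lay below their hosts. The change of the small RNA had a Pearson correlation of 0.12 and a Spearman correlation of 0.095 with that of its host over the 94 genes, which share the 2 libraries and in part their hosts. An exon of the host overlaps 49 of the 94 small RNAs, where reads could be divided between both. Intervals of the CARM1 KO to parental ratio wholly above equal levels were found for 3 genes with overlap and 0 without. The 45 without overlap had a median difference of -1.79.

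**Figure D4:**
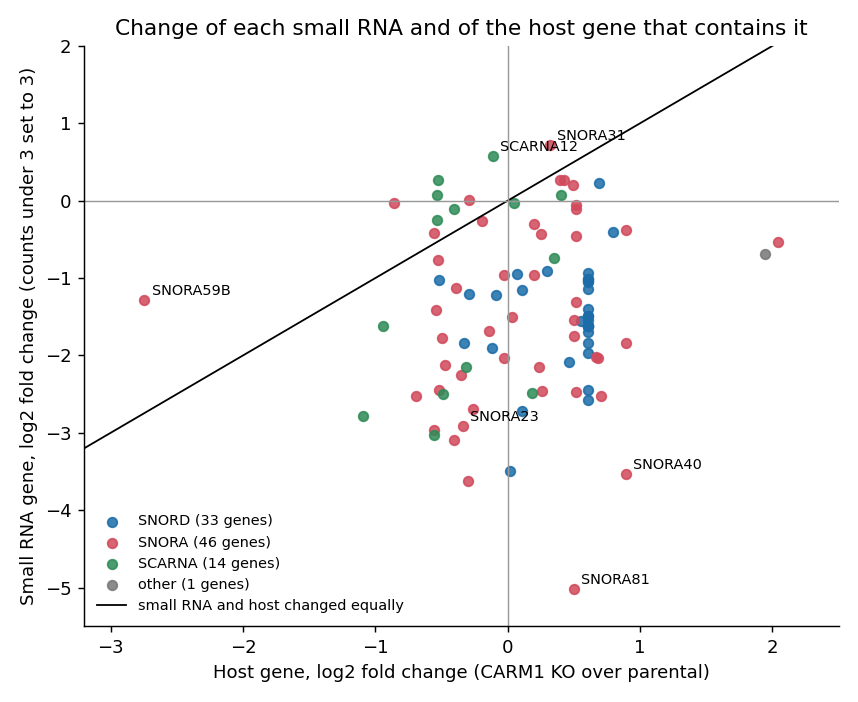
The log2 fold change of each of 94 small RNA genes (y axis, counts under 3 set to 3) is plotted against that of its host gene (x axis), both CARM1 KO over parental, coloured by class. The line marks equal change, and 84 of the 94 points lie below it on the fitted log2 scale, with hosts spread about evenly to both sides of 0.

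Hosts with several small RNAs show the difference within a single host gene. SNHG14, the long non-coding host of the SNORD116 array, had 3176 parental and 4958 CARM1 KO reads, 1.52-fold higher (1.46 to 1.59), while all 19 of its counted snoRNAs were lower. TAF1D, which encodes a factor of RNA polymerase I, had 8871 and 16886 reads, 1.86-fold higher (1.81 to 1.91). Of its 3 snoRNAs, SNORA8 had 347 and 273 reads and SNORA40 had the 215 and 19 given above. SNORA8 was 1.30-fold lower (1.11 to 1.53), a smaller factor than that of SNORA40. EIF4A2, a helicase of translation initiation, had 19056 and 27591 reads, 1.41-fold higher (1.39 to 1.44). Of its snoRNAs, SNORA63 (ENSG00000200320) had 148 and 52 reads, SNORA4 had 148 and 45, and SNORA81 had 95 and 0, which is 32.4-fold lower against 3 reads, with a lower 95% limit of 25.9-fold. Small RNAs of the same host gene thus had unequal ratios. The host counts are per gene, and which transcripts of a host carry each small RNA was not examined.

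The long non-coding host SNHG17 was also higher, with 518 and 758 reads, 1.43-fold higher (1.28 to 1.60). Its SNORA71 genes differed among themselves. SNORA71D had 167 parental and 69 CARM1 KO reads, SNORA71B had 38 and 7, and SNORA71A had 59 and 58. SNORA71C had 38 and 36 reads, so that this gene and SNORA71A were near level and the other genes were lower. SNORA23 lies in IPO7, an importin gene with 26066 and 21132 reads, and the ratio of SNORA23 to IPO7 in CARM1 KO cells was 0.167 of that in parental cells (0.140 to 0.199). SNORD8 and SNORD9 lie in CHD8, a chromatin remodeller gene with 6953 and 7688 reads.

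**Figure D5:**
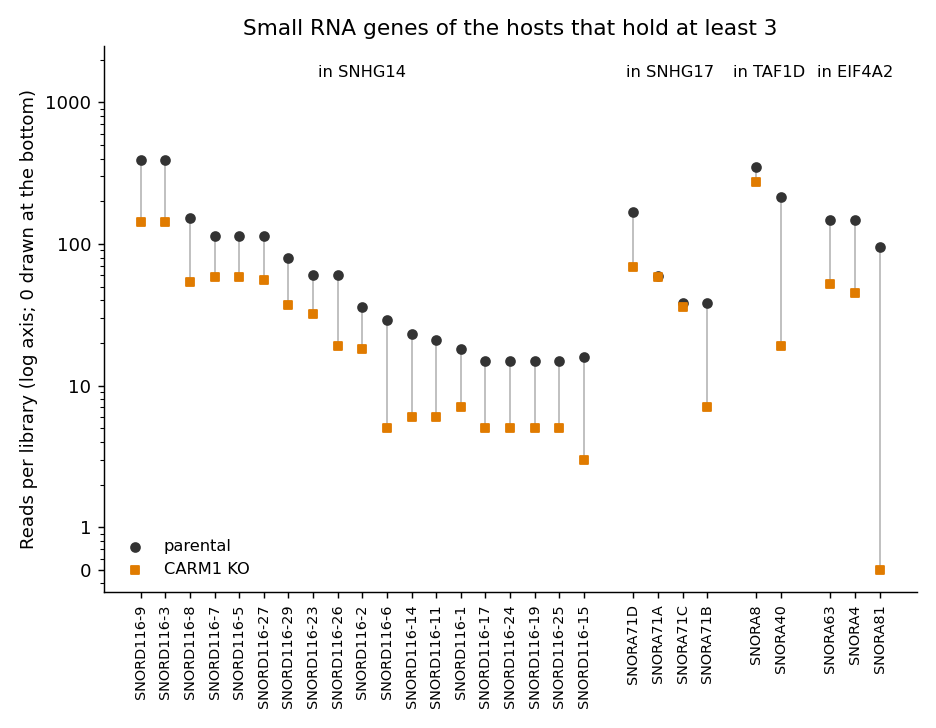
Reads of each small RNA gene in the parental library (circles) and the CARM1 KO library (squares) are plotted on a log axis, with 0 at the bottom, for the hosts that hold at least 3 of them, SNHG14, SNHG17, TAF1D and EIF4A2. The square lies below the circle for every gene drawn, widely so for SNORA40 (215 and 19 reads) and SNORA81 (95 and 0), and SNORA71A (59 and 58) is nearly level.

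Of the 10 small RNAs above their hosts, 5 were the long SCARNA genes, and SNORA31 had the most reads of the others. SCARNA12 in PHB2 (8251 and 7804 reads), SCARNA13 in the long non-coding SNHG10 (184 and 131), SCARNA7 in KPNA4 (4204 and 3245) and SCARNA5 and SCARNA6 in ATG16L1 (2166 and 1535) all had hosts that were lower in CARM1 KO cells. SNORA31 lies in TPT1, an abundant growth-related gene with 34512 and 44093 reads, and its ratio to TPT1 in CARM1 KO cells was 1.31 times that in parental cells (1.23 to 1.40). Host exons overlap SCARNA12, SCARNA13 and SNORA31. In the parental library the host had more reads than the small RNA in 91 of the 94 pairs. The exceptions were SNORA49 in EP400, SCARNA13 in SNHG10 and the gene with the symbol U3 in TEX14. SNORA49 had 2567 and 2140 reads, and EP400 had 505 and 595. The U3 gene had 68 and 43 reads and TEX14 had 28 and 111, so this pair was no exception in CARM1 KO cells.

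There were 5 genes at 0 reads in CARM1 KO cells and 0 genes at 0 reads in parental cells. Besides SNORD118 and SNORA81 these were SNORA30 with 36 reads in parental cells, SCARNA4 with 24 and SCARNA17 with 11. Against 3 reads their levels were 12.3-fold, 8.19-fold and 3.75-fold lower, with lower 95% limits of 9.49-fold, 6.16-fold and 2.57-fold. A count of 0 at this depth does not show that the RNA was absent.

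None of the genes for proteins that bind these RNAs passed 3-fold. Of 29 listed genes for core, assembly, Cajal body, U3 particle and end processing proteins 28 were matched, each with at least 100 reads. Of the 28, 0 were lower and 0 higher past 3-fold, where 7.32% and 10.4% of all genes with as many reads were. Their median log2 fold change was -0.04 (15 lower, 13 higher). In the box C/D core, FBL, the methyltransferase, had 1974 and 1935 reads, NOP56 had 5461 and 6643, NOP58 had 8186 and 7040 and SNU13 had 1056 and 1246. The box C/D core genes were within 1.19-fold of level. In the box H/ACA core, DKC1, the pseudouridine synthase, had 7442 and 8136 reads, NOP10 had 2669 and 2697, NHP2 had 1684 and 2038 and GAR1 had 239 and 232. The H/ACA core genes were likewise near level, with NHP2 1.18-fold higher (1.11 to 1.26). The lowest ratio was that of IMP3, a protein of the U3 particle, with 1277 and 555 reads, 2.36-fold lower (2.13 to 2.61). Of the other U3 particle genes MPHOSPH10 had 3114 and 2123 reads, RRP9 1018 and 845, and IMP4 2403 and 2470, so that 3 of the 4 were lower, with a median log2 fold change of -0.44. COIL, which encodes the Cajal body protein coilin, had 3205 and 1990 reads, 1.65-fold lower (1.56 to 1.74), and WRAP53, which binds the small Cajal body RNAs, had 234 and 216. SMN1 had 4666 and 2582 reads and SMN2 1973 and 3082, but these genes are near-identical copies and their division is uncertain.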

How the data were processed

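RNA was extracted with Trizol, cleaned on RNeasy columns, which retain short RNAs poorly, and made into libraries with a ribosomal RNA depletion kit, then sequenced as 75-base paired reads. The deposited values are whole-number counts per Ensembl gene with no normalization, which the authors estimated with RSEM (version 1.2.3 in the submitters' processing notes, while the methods name another) after alignment to hg19 in bowtie2. The Ensembl release and the use of strand are not given in the sources used here. RSEM divides reads among genes that share sequence, and 6 of the 107 genes share their whole sequence with another gene. The 12 genes with the same counts as another of the group include genes that do not share their whole sequence.

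Gene types, symbols, positions and hosts came from GENCODE 44 on GRCh37 coordinates, where 55501 of 57736 identifiers were found. A host is a same-strand protein-coding or long non-coding gene of the count table that spans the small RNA. Where several do, the one with the most reads was taken. A small RNA in no host is one for which this search found none. The deposited counts were scaled by TMM in edgeR 4.0.16 (R 4.3.3), and log2 fold changes used a prior count of 0.125. Fold changes in words are scaled count ratios with exact 95% binomial intervals from scipy 1.17.1, covering counting error only, so the depth of each gene sets its interval. A count of 0 was set to 3 reads, and the lower limit of the interval is given beside that value. Levels per length are RPKM, computed here from scaled counts and annotated length. edgeR's test needs replicates and was not run, so called means past 3-fold. The scaling and fold change steps were tested on simulated counts, which held no spread between cultures. Sequences were read with pysam 0.24.0.

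The genes, lists and tests were chosen with earlier results of these data known. Named genes are the 5 with the most reads per base in each class, the 5 largest rises and falls among those with at least 100 reads, those in hosts with at least 3, those in no host with at least 100 reads, the SNORD113 to SNORD116 families, U3, U8, U13, the snoRNP protein genes, and the hosts of these. Any other small RNA gene named, such as SNORD17, SNORD9, SNORD14C, SNORA20, SNORA48, SNORA30, SCARNA4, SCARNA6, SCARNA17, SCARNA20, SCARNA22 and SCARNA23, was chosen after its values were seen. Alternatives were other scalings (library size, DESeq2 1.42.0 size factors, TMM on protein-coding genes), other minimums of reads, thresholds and prior counts, and other host choices. The ChIP-seq data were not used here. The SNORD116 copies not named are given by their range, and 1 further small RNA covered by the naming rule is not reported here by itself and enters only counts and medians.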

Additional observations from a re-analysis of the deposited data

How the results depend on the processing

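With 1 library for each genotype no library could be left out, and there is no measure of the spread between cultures. No paired analysis was possible because each group has 1 library. Of 50 alternative values 42 stayed close to the value reported, 8 moved further and 0 reversed. Close means within 1.5 times for counts, where a 0 had to stay at 0. For median log2 fold changes it means a difference of at most the log2 of 1.5. Some of the 42 could not have moved, so their number does not measure robustness. Scaling cancels in the small RNA minus its host, which stayed at -1.77 under every other scaling. A count of 0 genes higher past 3-fold also stays at 0 in any subset of the genes. The number of genes lower past 3-fold was 49 and moved with the minimum of reads, to 97 with a minimum of 1 read, 24 with a minimum of 50 reads and 17 with a minimum of 100 reads. These settings test more or fewer genes. The number higher past 3-fold was 0, and became 11 with a minimum of 1 read and 1 with a threshold of 2-fold. The SCARNA median log2 fold change of -0.74 moved to -1.51 with a minimum of 1 read and to -0.11 with a minimum of 50 or 100 reads. The other medians ranged from -1.53 to -1.15 for SNORD, from -2.05 to -1.54 for SNORA and from -1.96 to -1.53 for the small RNA minus its host. Without the SNORD116 genes 40 of 88 genes were lower past 3-fold. The minimum of 100 reads and the setting without SNORD116 were chosen after seeing the data. The class medians stayed below 0 under every alternative run. Counts near 0 limit the ratios of the rarer genes, and 14 genes had at most 3 reads in CARM1 KO cells.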
